A study of Mus musculus with 12 samples.

Results

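The genes described here encode the spectrin-actin membrane skeleton of the red cell. They are 9 of the 25097 genes in the tables: Sptb, Ank1, Epb41, Epb42, Dmtn, Add1, Add2, Tmod1 and Tmod3. They were taken by symbol, as known components of this skeleton. Earlier results of these data were known at that choice, so comparisons with all genes below describe the set and do not test it. All 9 were present and passed the filter on low counts. Of the genes in the tables, 12115 passed that filter and were tested. RNA was sequenced from G1E-ER-GATA-1 cells, a mouse erythroid precursor line without endogenous GATA-1 that carries GATA-1 fused to the estrogen receptor's ligand-binding domain. Beta-estradiol (E2) switches the fusion on and erythroid maturation follows. The 4 groups of 3 libraries were WT cells without treatment, WT cells after 48 h of 1 µM E2, double-mutant cells after 48 h of E2, and double-mutant cells after 48 h of E2 together with 1 mM 5-aminolevulinic acid (5-ALA). In the mutant line, cis-elements of Alas2 are altered. The product of Alas2 is 5-aminolevulinate synthase of erythroid cells, and 5-ALA, which it forms, is where heme synthesis starts. Cells of all 4 groups carry the fusion and grew with erythropoietin, Kit ligand-conditioned medium and puromycin. The labels do not say how many clones the mutant cells represent, and no mutant cells without E2 are among the libraries, so a difference of the mutant line that precedes E2 cannot be told apart from one that arises with it. The labels also do not say whether libraries of a group came from separate cultures, so the p-values measure only the spread between these libraries, which may be technical.

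Beneath the red cell membrane lies a lattice of spectrin. Beta-spectrin (Sptb) is a main chain of the spectrin tetramers, whose ends meet at short actin filaments. Ankyrin (Ank1) ties beta-spectrin to the anion exchanger band 3 (Slc4a1), and protein 4.2 (Epb42) stabilizes that link. At the actin junctions, protein 4.1R (Epb41) strengthens the binding of spectrin to actin and connects it to glycophorin C (Gypc) through p55 (Mpp1). Dematin (Dmtn) bundles actin, adducin (Add1 for the alpha and Add2 for the beta subunit) caps the fast-growing filament end, and tropomodulin (Tmod1, Tmod3) caps the slow-growing end. The lattice is assembled as erythroblasts mature, and inherited defects of several of its proteins cause spherocytic or elliptocytic anemia.

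Promoter sequences were available from RefSeq (GRCm38.p6) for 6 of the 9 genes, in 8 windows of 250 bases that end just before an annotated start. Those of Sptb, Epb41, Add1 and Add2 are printed because Sptb and Epb41 were the most abundant of the set in WT cells with E2, and the adducin pair is compared by its ratio below. The sequences run 5′ to 3′ on the gene's strand, and capitals mark CACCC or its reverse complement GGGTG, letters bound by KLF-type factors, and GATAA or its reverse complement TTATC, the core bound by GATA factors. The windows are chr12:76710548-76710797 (minus strand) for Sptb, chr4:132075314-132075563 (minus strand) for the most upstream of the Epb41 starts, chr5:34573414-34573663 (plus strand) for Add1 and chr6:86028431-86028680 (plus strand) for Add2.
Sptb: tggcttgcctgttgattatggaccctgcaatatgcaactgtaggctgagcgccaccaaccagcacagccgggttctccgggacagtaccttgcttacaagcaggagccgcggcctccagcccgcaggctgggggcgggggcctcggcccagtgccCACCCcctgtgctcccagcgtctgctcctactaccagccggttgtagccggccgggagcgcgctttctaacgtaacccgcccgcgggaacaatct
Epb41: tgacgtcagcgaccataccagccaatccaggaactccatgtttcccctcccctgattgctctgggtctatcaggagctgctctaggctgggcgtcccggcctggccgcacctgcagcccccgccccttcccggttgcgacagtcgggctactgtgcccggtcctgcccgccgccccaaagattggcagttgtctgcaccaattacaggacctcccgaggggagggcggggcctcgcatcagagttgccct
Add1: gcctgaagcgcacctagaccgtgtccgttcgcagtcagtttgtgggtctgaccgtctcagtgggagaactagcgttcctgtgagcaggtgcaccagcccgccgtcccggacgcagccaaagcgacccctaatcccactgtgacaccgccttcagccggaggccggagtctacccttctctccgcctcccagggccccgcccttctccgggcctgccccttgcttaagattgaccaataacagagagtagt
Add2: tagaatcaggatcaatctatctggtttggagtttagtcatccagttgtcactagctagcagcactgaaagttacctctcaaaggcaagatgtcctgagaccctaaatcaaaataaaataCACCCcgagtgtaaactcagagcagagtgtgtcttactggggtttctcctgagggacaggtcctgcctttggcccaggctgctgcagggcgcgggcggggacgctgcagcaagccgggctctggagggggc
CACCC or GGGTG was found in 3 of the 8 windows (those of Sptb, Add2 and Tmod1), against 52.0% of all 32851 RefSeq windows of this length. In Sptb it starts 95 bases and in Add2 131 bases before the start of transcription. GATAA or TTATC was found in 1 of the 8 (Epb42), against 22.6% of all windows. Neither was found in the 3 Epb41 windows or in Add1. The TGAGTCA core (reverse complement TGACTCA) bound by NF-E2-type factors was in none of the 8 windows, against 4.46% of all. None of the 8 windows held both motif pairs. These matches describe letters in a window and not binding.

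The libraries held between 20309085 and 43548387 expected counts (reads assigned to a gene, with shared reads divided by likelihood). Alas2 followed the labels, with 4280 to 4309 CPM in WT cells with E2 and at most 12.5 CPM in any other library (CPM, counts per 1000000 after scaling between libraries). All 10 erythroid markers were tested. Their summed level was 1150 to 1174 CPM in untreated WT cells, 76796 to 77688 with E2, 25072 to 26513 in mutant cells with E2 and 68506 to 73790 with 5-ALA added. Of 8 megakaryocyte markers 6 were tested. Their sum also moved, from 188 to 194 CPM untreated to 1851 to 1874 with E2, 425 to 441 in mutant cells and 725 to 742 with 5-ALA. Itgb3 was its most abundant gene in every group, at a mean of 87.9 CPM untreated and 1784 CPM with E2 in WT cells. The 6 mast cell and basophil markers summed to 134 to 150 CPM in untreated WT cells, mostly Cpa3, and to at most 2.12 CPM in the other groups, with Mcpt8, Fcer1a and Tpsb2 at 0 in every group. The 5 lymphocyte markers summed to 34.1 to 39.5 CPM in untreated cells, mostly Ptprcap, and to at most 1.93 CPM otherwise. Granulocyte and macrophage markers stayed at or below 1.01 CPM in sum and fibroblast markers at or below 0.228 CPM. The part of these shifts in the results below was not tested. In RNA from bulk cells, fewer cells of a type and less RNA per cell cannot be told apart.

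On the TPM scale (transcripts per 1000000, scaled for length, which allows levels of different genes to be compared) the 9 genes summed to 334 ± 3.98 TPM in untreated WT cells (mean ± SD, n = 3, as for all such values). With E2 they summed to 3043 ± 36.1 TPM in WT cells, 2755 ± 20.3 TPM in mutant cells and 2548 ± 21.8 TPM in mutant cells with 5-ALA. The sums were not adjusted for shifts of the TPM scale between groups. On log2(TPM + 1), all genes tested had a median change of -0.23 with E2 in WT cells. That median was 0.12 in mutant against WT cells and -0.15 with 5-ALA in mutant cells. Smaller differences between the sums are thus not read as a change of the set. In untreated cells the order was Epb41 (134 TPM), Add1 (82.5), Tmod3 (49.99), Add2 (22.3), Ank1 (17.6), Sptb (16.6), Tmod1 (9.71), Epb42 (1.36) and Dmtn (0.120). Ank1 and Sptb overlapped between libraries there, and no other neighbours did. In WT cells with E2 the order was Epb41 (1232 TPM), Sptb (874), Add1 (304), Ank1 (279), Tmod3 (206), Add2 (88.5), Tmod1 (52.4), Dmtn (6.01) and Epb42 (1.83), with no overlap between neighbours. In mutant cells Sptb led (1109 TPM), followed by Add1 (454), Epb41 (394), Ank1 (307), Add2 (261), Tmod3 (163), Tmod1 (37.1), Dmtn (26.6) and Epb42 (1.84). With 5-ALA Sptb (998 TPM) again led, Epb41 (435) stood above Add1 (336), and Ank1 (299) and Add2 (294) overlapped. Epb41 thus made up 40.5 ± 0.230% of the summed TPM in WT cells with E2 but 14.3 ± 0.229% in mutant cells. Sptb made up 28.7 ± 0.222% and 40.3 ± 0.149%. The plot of TPM by library shows these levels.

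**Figure D1:**
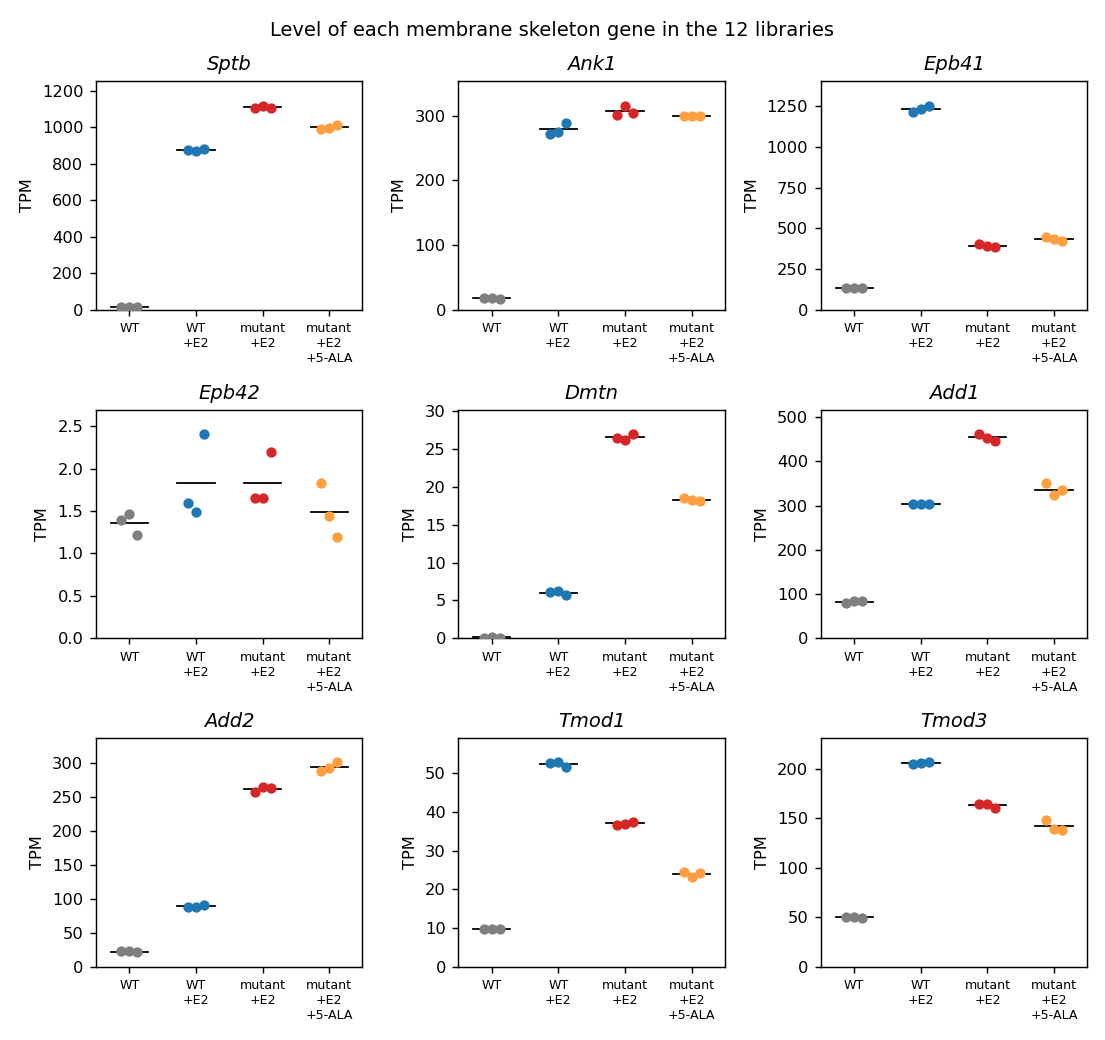
Level of each of the 9 genes in TPM (vertical axes, starting at 0, each with its own range) in the 4 groups. Points are single libraries and lines are means of 3. Epb41 is highest in WT cells with E2 (1212 to 1253 TPM). Dmtn, Add2, Sptb, Add1 and Ank1 are higher in both mutant groups than in either WT group, with the largest folds for Dmtn and Add2.

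In WT cells the counts of all 9 skeleton genes were higher with E2 than without, though Epb42 was not called on log2(TPM + 1). Of the 9 genes, 9 rose with E2 and 0 fell, where 43.3% of all genes tested rose, 46.4% fell and 89.7% were called in either direction (edgeR quasi-likelihood test with Benjamini-Hochberg adjustment over all 12115 genes, called at an adjusted p below 0.05). The median log2 fold change of the 9 genes was 2.62, against -0.03 over all genes tested, and 8 of the 9 changed by 2-fold or more, against 56.8% of all. Dmtn, Sptb and Ank1 had the steepest rises, and Epb42 the smallest. Dmtn, at 5 to 12 expected counts a library untreated, passed the filter on low counts only through groups with E2. Its place among the genes tested, and so in this count, thus rests on those groups. Without the filter its log2 fold change was 6.03, against 6.07 with it. No gene's libraries overlapped between the 2 groups, as held for 90.2% of all genes.

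Sptb, the beta-spectrin gene (ENSMUSG00000021061, mm10 chr12:76580488-76710547, minus strand), stood at 17.0, 17.5 and 15.4 TPM in the untreated libraries and at 873, 869 and 880 TPM with E2. Every E2 library was far above every untreated one, and the rise was 64.2-fold (log2 6.004, SE 0.0322, edgeR adjusted p = 1.23e-41; the SE is the absolute log2 change over the root of the F statistic). Ank1 (ENSMUSG00000031543, chr8:22974844-23150497, plus strand), the ankyrin that anchors spectrin to band 3, had 18.1, 18.0 and 16.6 TPM without E2 and 272, 275 and 289 TPM with it. Its rise was 16.9-fold (log2 4.08, SE 0.0287, edgeR adjusted p = 3.84e-39). Epb41 (ENSMUSG00000028906, chr4:131923413-132075321, minus strand), the gene of protein 4.1R, was already the highest of the set without E2, at 132, 135 and 134 TPM. It reached 1212, 1230 and 1253 TPM with E2 (log2 3.47, SE 0.0244, edgeR adjusted p = 3.82e-39). In WT cells with E2 the TPM of Epb41 exceeded that of 99.3% of the genes tested, and that of Sptb exceeded 98.9%.

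Dmtn (ENSMUSG00000022099, chr14:70601263-70636048, minus strand), which encodes the actin-bundling protein dematin, was nearly silent without E2. It had 0.09, 0.22 and 0.05 TPM there, from 5 to 12 expected counts a library, and 6.09, 6.21 and 5.73 TPM with E2. Its rise was 67.1-fold (log2 6.07, SE 0.135, edgeR adjusted p = 9.34e-27). Its level with E2 was still low: Tmod1, next above it in the order, stood 8.71-fold higher. On log2(TPM + 1) the value for Dmtn was 2.65, since the pseudocount of 1 compresses changes of low genes. The adducin genes rose 4.17-fold (Add1) and 4.85-fold (Add2). Add1 (ENSMUSG00000029106, chr5:34573664-34632308, plus strand) went from 80.3, 83.2 and 83.9 TPM to 303, 305 and 304 TPM (log2 2.06, SE 0.0236, edgeR adjusted p = 3.95e-34). Add2 (ENSMUSG00000030000, chr6:86028681-86124409, plus strand) went from 22.9, 22.6 and 21.3 TPM to 87.6, 87.4 and 90.6 TPM (log2 2.28, SE 0.0316, edgeR adjusted p = 4.95e-32). The tropomodulin genes rose as well. Tmod1 (ENSMUSG00000028328, chr4:46038935-46116032, plus strand), the tropomodulin of mature red cells, went from 9.64, 9.81 and 9.67 TPM to 52.6, 52.8 and 51.7 TPM (log2 2.62, SE 0.0373, edgeR adjusted p = 9.57e-32). Tmod3 (ENSMUSG00000058587, chr9:75497707-75559657, minus strand), the widely expressed paralog, went from 50.3, 50.5 and 49.2 TPM to 205, 206 and 207 TPM (log2 2.33, SE 0.0232, edgeR adjusted p = 1.29e-35). Tmod3 thus stayed above Tmod1 in every group.

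Epb42, the gene of protein 4.2 (ENSMUSG00000023216, chr2:121017891-121037072, minus strand), remained low throughout. It had 1.40, 1.47 and 1.22 TPM without E2 and 1.59, 1.49 and 2.41 TPM with E2, from 38 to 102 expected counts a library over the whole series. Its counts were higher with E2 (log2 0.98, SE 0.169, edgeR adjusted p = 4.17e-06). On log2(TPM + 1) the difference was 0.25 and not called (limma adjusted p = 0.0941). All genes tested had a median of -0.23 there, so Epb42 stood 0.48 above it. The mean transcript length assigned to Epb42 was 2028 ± 12.5 bases without E2 and 2495 ± 304 bases with it. The part of that length in the lost call was not tested. Ank1 stood 12.9 ± 0.677 times above Epb42 in TPM without E2 and 159 ± 34.0 times above it with E2.

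**Figure D2:**
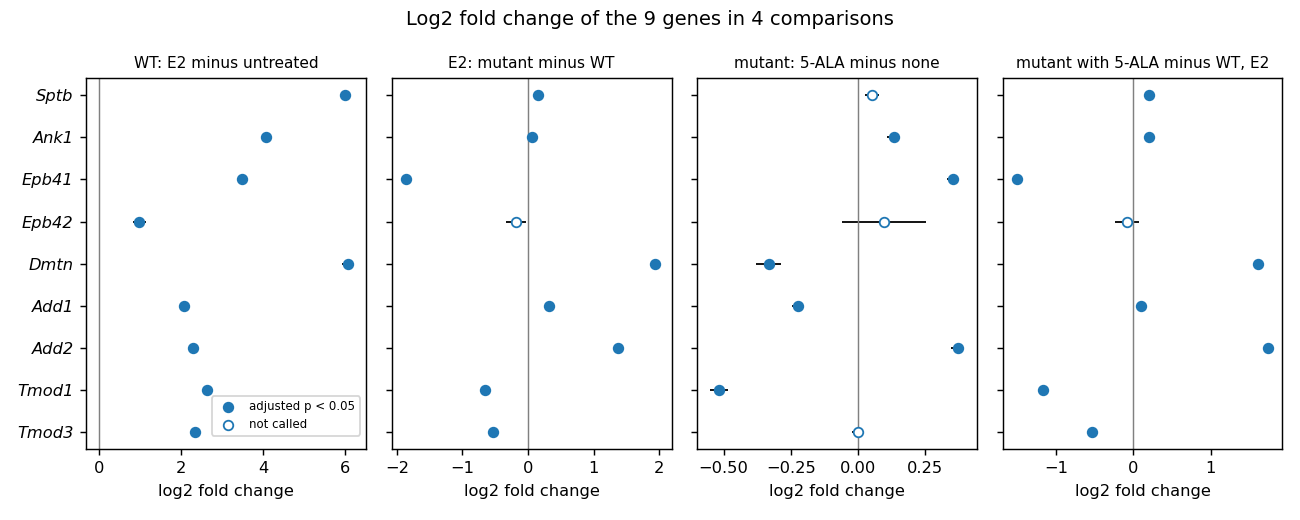
Log2 fold change (horizontal axes, a separate range for each panel) of the 9 genes in the 4 comparisons, with E2 for beta-estradiol. Bars are approximate SE from the fit over 12 libraries, filled points are called at an adjusted p below 0.05 and open points are not; all 9 genes lie right of 0 in the first panel, and Epb41, Tmod1 and Tmod3 lie left of it in both comparisons of mutant with WT cells.

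The skeleton's partner genes did not all follow. Among 17 other skeleton and paralog genes, fixed as a list, 10 were tested, of which 2 rose, 5 fell and 3 were not called. Their median log2 fold change was -0.335. The spectrins of other tissues fell: Sptan1 (alpha-II) had a log2 fold change of -3.35 and Sptbn1 (beta-II) of -3.62. Add3, the gamma-adducin gene, fell too, from 44.6 ± 0.201 to 29.0 ± 0.270 TPM. On counts its fall was smaller, from 105 ± 2.35 to 82.9 ± 1.21 CPM. Thus 1 adducin gene of 3 went against Add1 and Add2. The plot of spectrin genes shows Sptb rising and the other pair falling.

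**Figure D3:**
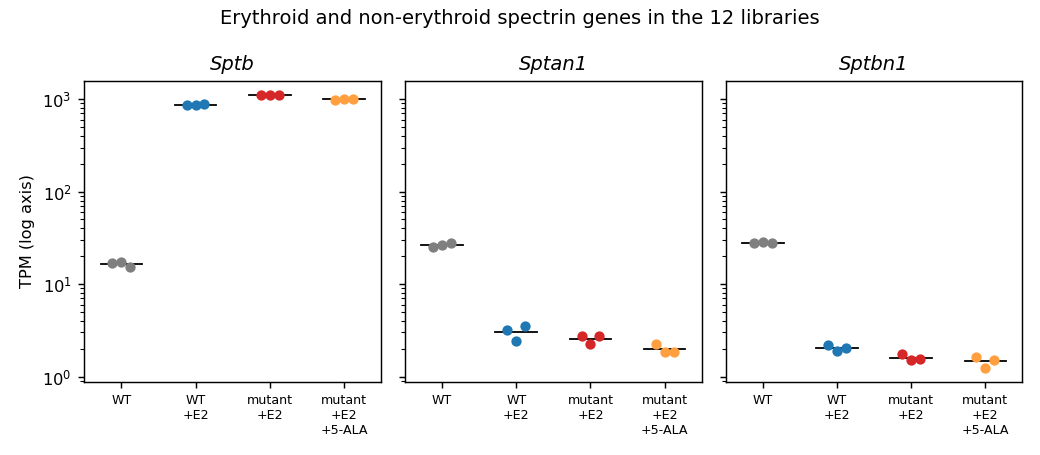
TPM of 3 spectrin genes (shared log axis) in the 4 groups, points for libraries and lines for means of 3. Sptb rises from a mean of 16.6 TPM in untreated WT cells to 874 TPM with E2, while Sptan1 and Sptbn1 are lower in all groups with E2.

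Of 12 genes for actin, tropomyosin, filament capping and actin turnover, 10 were tested, 5 rose and 5 fell, with a median of -0.07. Tpm1, a tropomyosin that binds the short filaments, had a log2 fold change of 2.03, and Tpm3, another, of -1.36. All 11 membrane anchor genes were tested. Of these 9 rose, Rhag fell and Slc2a1 was not called, and the median was 2.03. Slc4a1 (band 3) went from 3.20 ± 0.227 to 962 ± 8.02 TPM, Mpp1 from 41.3 ± 1.28 to 627 ± 13.5 TPM and Gypc from 25.8 ± 0.266 to 172 ± 3.40 TPM. All 3 tested of 4 calpain system genes, whose products cut or protect skeleton proteins, rose (Capn1, Capns1 and Cast, with a median of 1.247).

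In mutant cells with E2 the set split. Compared with WT cells with E2, 5 of the 9 genes were higher, 3 lower and 1 was not called, where 35.1% of all genes tested were higher, 33.6% lower and 68.8% called in either direction. The median log2 fold change was 0.07, against -0.01 over all genes. Groups did not overlap for 8 of the 9, against 71.7% of all genes. The sizes differed widely: 3 of the 9 (Epb41, Dmtn and Add2) changed by 2-fold or more, against 11.8% of all.

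Epb41 had the largest fall. It had 401, 392 and 387 TPM in mutant cells against 1212, 1230 and 1253 TPM in WT cells, a level between untreated and E2-treated WT cells. It was 3.63-fold lower (log2 -1.86, SE 0.0228, edgeR adjusted p = 1.51e-31), and 3.79% of all genes tested had a larger absolute change. Exons of 2 predicted genes, Gm10300 and Gm13063, overlap those of Epb41, and neither exceeded 2.53 TPM in any library. Both tropomodulin genes were lower. Tmod1 had 36.7, 37.0 and 37.5 TPM against 52.6, 52.8 and 51.7 TPM (log2 -0.66, SE 0.0313, edgeR adjusted p = 1.95e-17). Tmod3 had 165, 164 and 161 TPM against 205, 206 and 207 TPM (log2 -0.53, SE 0.0213, edgeR adjusted p = 3.50e-19).

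Dmtn and Add2 moved the other way. Dmtn had 26.5, 26.2 and 27.0 TPM in mutant cells against 6.09, 6.21 and 5.73 TPM in WT cells, 3.84-fold higher (log2 1.94, SE 0.0530, edgeR adjusted p = 2.73e-23). Of the genes tested, 0.974% had a larger log2 fold change. Add2 had 257, 264 and 263 TPM against 87.6, 87.4 and 90.6 TPM, 2.58-fold higher (log2 1.37, SE 0.0265, edgeR adjusted p = 7.27e-27). Add1, which pairs with it, had 462, 454 and 447 TPM against 303, 305 and 304 TPM. Its change on the count scale was smaller (log2 0.32, SE 0.0221, edgeR adjusted p = 1.50e-13). Add2 TPM was 0.291 ± 0.00619 of Add1 TPM in WT cells and 0.575 ± 0.0172 in mutant cells.

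Sptb, Ank1 and Epb42 differed less between mutant and WT cells. Sptb had 1106, 1118 and 1104 TPM against 873, 869 and 880 TPM, with a log2 fold change of 0.15 on counts (SE 0.0254, edgeR adjusted p = 8.77e-06) and 0.34 on log2(TPM + 1). Sptb thus stood 0.22 above the gene-wide median of that scale, which was 0.12. Ank1 had 302, 316 and 304 TPM against 272, 275 and 289 TPM, and its log2 fold change of 0.07 (SE 0.0242, edgeR adjusted p = 0.0167) was not called with DESeq2 size factors (adjusted p = 0.106), in DESeq2 (0.0947), with a filter of 10 CPM (0.146) or without the second mutant library (0.0629). Epb42 had 1.66, 1.65 and 2.20 TPM against 1.59, 1.49 and 2.41 TPM, and the groups overlapped (log2 -0.18, SE 0.158, edgeR adjusted p = 0.312).

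The partner lists were mixed. Of the 10 tested genes in the list of other skeleton and paralog genes, 3 were higher, 3 lower and 4 not called (median -0.335). Add3 was higher, at 68.8 ± 1.46 against 29.0 ± 0.270 TPM (log2 1.05), so that all 3 adducin genes were higher in the mutant cells. In the actin and tropomyosin list 1 gene was higher (Cfl1), 6 lower and 3 not called (median -0.35), with Actg1 at a log2 fold change of -1.79 and the capping protein genes Capza2 and Capza1 at -0.78 and -0.51. Of the 11 membrane anchor genes 8 were higher and 3 lower (median 0.40). The 3 lower were Slc4a1 (log2 -1.52), Slc2a1 and Xk, and Rhag was the highest by fold (log2 2.16). Slc4a1 TPM went from 3.45 ± 0.123 times that of Ank1 in WT cells to 1.26 ± 0.0233 times in mutant cells. Of the 3 calpain system genes 2 were higher and 1 was not called.

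Adding 5-ALA to mutant cells asks what a supply of heme precursor changes. The comparison shares the mutant libraries with the one before it, so the 2 sets of values are not independent. Of the 9 genes, 3 rose (Ank1, Epb41 and Add2), 3 fell (Dmtn, Add1 and Tmod1) and 3 were not called, where 21.6% of all genes tested rose, 21.0% fell and 42.6% were called in either direction. The median log2 fold change was 0.052, against 0.006 over all genes. Of the 9, 0 were called with a change of 2-fold or more, against 2.31% of all genes. Groups did not overlap for 7 of the 9, against 49.1% of all. By log2(TPM + 1) all genes tested had a median of -0.15, and limma called 806 genes higher and 5719 lower, against 2620 and 2543 on counts. TPM values are therefore also given relative to that median.

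Epb41 had 448, 435 and 421 TPM with 5-ALA against 401, 392 and 387 TPM without (log2 0.35, SE 0.0222, edgeR adjusted p = 8.12e-14, and 0.29 above the median on the TPM scale). All 3 libraries with 5-ALA were higher, yet all lay far below the 1212 TPM of the lowest WT library. Add2 had 288, 292 and 300 TPM against 257, 264 and 263 TPM, further from the WT level (log2 0.37, SE 0.0250, edgeR adjusted p = 4.36e-13, and 0.32 above the TPM median). Ank1 had a log2 fold change of 0.13 on counts (SE 0.0242, edgeR adjusted p = 4.65e-05). Its TPM was 299, 300 and 299 against 302, 316 and 304, a log2 difference of -0.04 that was 0.11 above the TPM median and not called there.

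Tmod1 fell the most, from 36.7, 37.0 and 37.5 TPM to 24.5, 23.1 and 24.3 TPM (log2 -0.52, SE 0.0339, edgeR adjusted p = 2.19e-13, and -0.46 relative to the TPM median). Its libraries with 5-ALA thus lay further below WT cells with E2 than those without. Dmtn went from 26.5, 26.2 and 27.0 TPM to 18.6, 18.3 and 18.1 TPM (log2 -0.33, SE 0.0458, edgeR adjusted p = 7.56e-07, and -0.36 relative to the TPM median). Add1 went from 462, 454 and 447 TPM to 351, 323 and 335 TPM (log2 -0.22, SE 0.0220, edgeR adjusted p = 1.54e-09, and -0.28 relative to the TPM median). For both genes the 5-ALA libraries lay between the mutant libraries without it and the WT libraries. The 3 genes without a call were Sptb, Tmod3 and Epb42. Sptb had 989, 992 and 1013 TPM against 1106, 1118 and 1104 TPM. Its log2 fold change was 0.05 on counts (SE 0.0254, edgeR adjusted p = 0.106) and -0.15 on the TPM scale (limma adjusted p = 0.00283), at the median of all genes there. Without the first library with 5-ALA, edgeR called it (log2 0.07, adjusted p = 0.0343). Tmod3 had 149, 139 and 138 TPM against 165, 164 and 161 TPM, with a log2 fold change of 0.00012 on counts (SE 0.0215, edgeR adjusted p = 1.0). On log2(TPM + 1) its value was -0.20, which limma called (adjusted p = 0.000101), and this is -0.05 relative to the median. Epb42 had 1.83, 1.44 and 1.19 TPM against 1.66, 1.65 and 2.20 TPM (log2 0.10 on counts, SE 0.157, edgeR adjusted p = 0.669). On the TPM scale its value was -0.19, which is -0.04 relative to the median.

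In the list of other skeleton and paralog genes 2 rose with 5-ALA, 2 fell and 6 were not called (median 0.025). In the actin and tropomyosin list 4 genes rose, 3 fell and 3 were not called (median 0.11), with Actg1 at a log2 fold change of 0.79. Of the membrane anchor genes 5 rose, 4 fell and 2 were not called (median -0.03). Slc4a1 rose from 386 ± 8.48 to 502 ± 12.5 TPM (log2 0.58). Of the 3 calpain system genes only Cast was called (log2 0.11), and that call was lost in DESeq2 (adjusted p = 0.0791), and without a filter on low counts (0.0807). It was also lost without mutant library 1 (0.123) or 2 (0.0709), and without 5-ALA library 1 (0.129) or 3 (0.0672). On the TPM scale its value was -0.09.

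Mutant cells with 5-ALA were also compared directly with WT cells with E2. These groups enter the comparisons above as well. Of the 9 genes 5 were higher, 3 lower and 1 was not called, where 33.3% of all genes tested were higher, 29.0% lower and 62.3% called in either direction. The median log2 fold change was 0.095, against 0.011 over all genes, and groups did not overlap for 8 of the 9, against 65.9% of all. Epb41 remained 2.84-fold lower (log2 -1.51, SE 0.0225, edgeR adjusted p = 5.70e-29), Tmod1 2.26-fold lower (log2 -1.18, SE 0.0328, edgeR adjusted p = 1.07e-22) and Tmod3 1.44-fold lower (log2 -0.53). Add2 was 3.34-fold higher (log2 1.74, SE 0.0266, edgeR adjusted p = 8.73e-29) and Dmtn 3.05-fold higher (log2 1.61, SE 0.0541, edgeR adjusted p = 7.76e-21). Thus 4 of the 9 differed by 2-fold or more and were called, against 7.77% of all genes. Sptb, Ank1 and Add1 were close to WT, with log2 fold changes of 0.20, 0.20 and 0.09 (edgeR adjusted p = 7.60e-08, 2.80e-08 and 0.000436). Epb42 had -0.09 (edgeR adjusted p = 0.657). In the list of other skeleton and paralog genes 4 were higher, 2 lower and 4 not called (median 0.033), with Add3 at a log2 fold change of 0.82. In the actin and tropomyosin list 1 was higher, 5 lower and 4 not called (median -0.131), with Tpm4 (means of 1.74 CPM in WT and 0.332 CPM in mutant cells) at -2.40 and Actg1 at -0.99. Of the membrane anchor genes 7 were higher, 2 lower and 2 not called (median 0.203), with Rhag at 2.91, Kel at 0.94 and Slc4a1 at -0.94. All 3 calpain system genes tested were higher (median 0.222).

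Paired genes of the skeleton were compared by the log2 ratio of their TPM, in 4 ratios and 4 comparisons. In 13 of these 16 the groups did not overlap, and each of those had p = 0.1 in the exact two-sided permutation test (adjusted p = 0.123 over the 16), the smallest that 3 against 3 libraries allow. The share over other pairs of genes was not computed, so this count does not set these pairs apart. Add2 over Add1 was -1.89 ± 0.0839 in untreated WT cells, -1.78 ± 0.0305 with E2, -0.80 ± 0.0435 in mutant cells and -0.20 ± 0.0758 with 5-ALA, so the beta subunit gene drew nearer to the alpha subunit gene in the mutant groups. Tmod1 over Tmod3 was -2.36 ± 0.0192, -1.98 ± 0.0183, -2.14 ± 0.0353 and -2.57 ± 0.0514 in the same order. It was highest in WT cells with E2 and lowest in mutant cells with 5-ALA. Sptb over Ank1 was -0.08 ± 0.0325, 1.65 ± 0.0397, 1.85 ± 0.0258 and 1.74 ± 0.0206. Epb42 over Ank1 was -3.69 ± 0.0757 without E2 and between -7.29 and -7.68 in the groups with E2, which overlapped among each other. The plot of ratios shows every library.

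**Figure D4:**
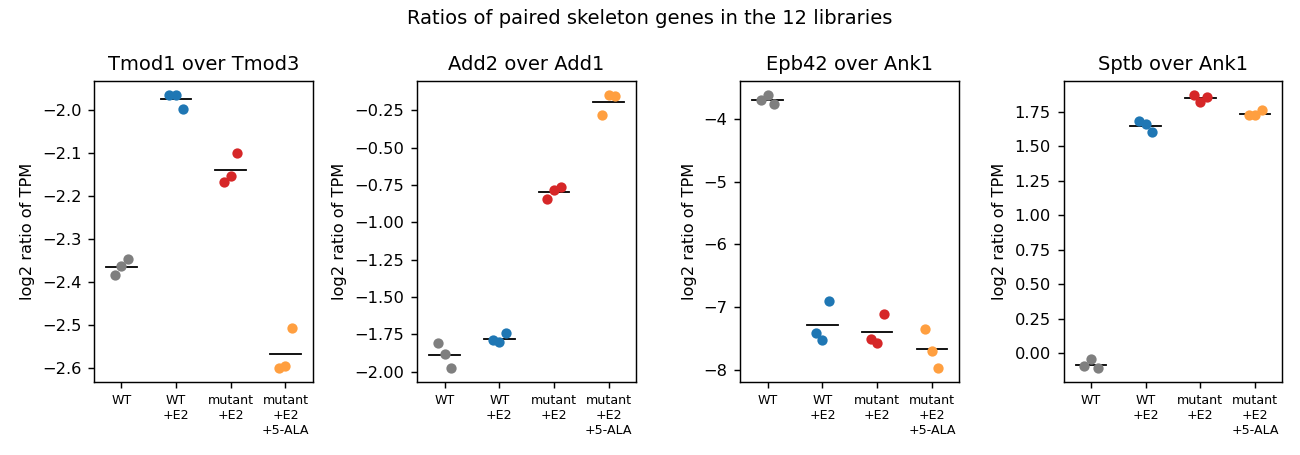
Log2 ratio of TPM (vertical axes, each with its own range) for 4 pairs of skeleton genes in the 4 groups; points are libraries and lines are means of 3. Add2 over Add1 goes from -1.78 in WT cells with E2 to -0.80 in mutant cells and -0.20 with 5-ALA added.

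The tables also give for each gene a transcript length, weighted by the estimated abundance of its transcripts, which moves when other transcripts are used. Add2 and Tmod3 have 1 transcript each in the tables, so their length is fixed. For the other 7 genes, groups did not overlap in 16 of 28 comparisons, each with p = 0.1 (exact two-sided permutation test, adjusted p = 0.175 over the 28), again the smallest possible. The share over all genes with several transcripts was not computed, so this count does not set the skeleton genes apart. Ank1, with 17 transcripts, went from 6053, 5943 and 6243 bases without E2 to 5384, 5377 and 5152 bases with it. In mutant cells it had 5851, 5660 and 5776 bases, and with 5-ALA 5545, 5665 and 5687 bases. Add1, with 13 transcripts, went from 3239, 3173 and 3131 to 2965, 2948 and 2947 bases with E2, and had 2808, 2852 and 2803 bases in mutant cells. Tmod1 went from 3089 ± 62.9 to 2879 ± 52.9 bases with E2, and from 2956 ± 57.4 to 2777 ± 96.6 bases when 5-ALA was added. Exons of Tmod1 overlap those of Tstd2 by up to 1287 bases, and Tstd2 had 39.1 ± 0.485, 30.4 ± 3.71, 37.0 ± 2.68 and 27.1 ± 0.880 TPM in the 4 groups, so reads of the 2 genes may be shared. The part of that overlap in the length or level of Tmod1 was not tested. For Epb41, with 18 transcripts, the length differed by 52.4 bases or less between any 2 groups compared, so the 3.63-fold lower level in mutant cells came with little change in mean length. Sptb, whose exons overlap those of Plekhg3 by 1 base, differed by 17.0 bases or less. The tables do not name the transcripts behind each length.

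**Figure D5:**
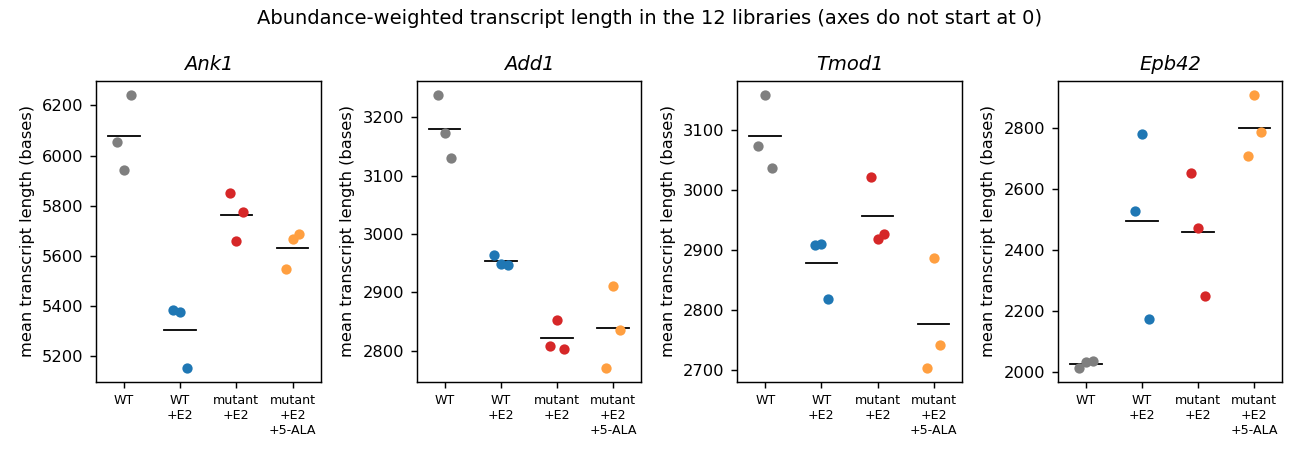
Abundance-weighted transcript length in bases (vertical axes, which do not start at 0) of 4 skeleton genes in the 4 groups; points are libraries and lines are means of 3. Ank1 is longest in untreated WT cells (6080 bases) and shortest in WT cells with E2 (5304 bases), and the Epb42 values spread widely at its low counts.

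The genes most like each member were found by the smallest distance between centred log2 CPM over the 12 libraries, among 7710 other genes with at least 10 CPM. Each pair shares the 12 libraries, and the 4 group means set most of the likeness. Sptb was closest to Fam214b (distance 0.173, r = 0.9999), which had 6.54 CPM without E2 and 456 to 488 CPM in the groups with it. Ank1 was closest to Renbp, the renin-binding protein gene (distance 0.324), Add1 to Ern1, a sensor of endoplasmic reticulum stress (0.155), and Tmod3 to Ubl3 (0.197). Epb41 was closest to Tuft1 (0.466, r = 0.9945), which had 102 CPM in WT cells with E2 and 29.6 CPM in mutant cells. Tmod1 was closest to Cpeb2, an mRNA-binding protein gene (0.320), Add2 to Cystm1 (0.539), Epb42 to Tceanc2 (0.445), and Dmtn to the claudin gene Cldn13 (1.33). Within the set, Tmod1 and Tmod3 were each other's nearest gene (0.844), and 22 genes outside the set lay closer to Tmod1 than Tmod3 did. For Sptb, whose nearest gene of the set was Dmtn (2.82), 115 other genes were closer. For every gene of the set, at least 18 genes outside it lay closer than its nearest gene within it.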

How the data were processed

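Per the submitters' processing notes, RSEM 1.2.20, Bowtie 1.1.1, CASAVA 1.8.2 and the build mm10 were used. The annotation release and the strand setting were not given in the sources used here. Expected counts per gene were deposited for every library, per the file headers. The authors' TPM values are scaled for length and library size. The authors' FPKM values were not used. The deposited length columns (another unit, bases) were used as given. Gene symbols and mm10 positions came from GENCODE M21 (24746 of 25097 identifiers matched).

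Expected counts were rounded, filtered with filterByExpr, which kept 12115 genes, normalized with TMM factors and modelled in edgeR 4.0.16 (R 4.3.3) as 4 group means over 12 libraries, with the quasi-likelihood F test. The fit was tested on simulated data in which few genes changed, as many up as down, in WT cells with E2 only. In the real data 89.7% of genes tested were called with E2, so the simulation does not test the scaling there. DESeq2 1.42.0 and limma 3.58.1 on log2(TPM + 1) and log2(TPM + 0.1) were alternatives, as were other scalings and filters, only the libraries compared, a replicate block and leaving out each library. Replicate numbers are in the labels, but nothing says that they mark a shared day. In the other lists, the called genes with the largest changes and at least 1 CPM, up to 4 a comparison, were eligible to be named, and those that bear on the set are printed. The members and lists were chosen with earlier results of these data known. The ratio of Slc4a1 to Ank1 was chosen after its values were seen. Results on some items are not reported here.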

Additional observations from a re-analysis of the deposited data

How the results depend on the processing

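Of 536 values of the 9 genes under alternatives, 506 kept their direction and side of the threshold, 6 lost a call with the same sign (Epb42 with E2, Ank1 in mutant cells), 1 gained one (Sptb with 5-ALA) and 23 changed sign. Among those that changed sign on the TPM scale with 5-ALA, Ank1 lost its call and Sptb and Tmod3 were called lower. On log2(TPM + 1) and log2(TPM + 0.1), limma called 2326 and 2309 genes lower when mutant and WT cells with E2 were compared (4076 on counts) and 5618 and 5596 higher (4258 on counts). For 5-ALA it called 806 and 789 genes higher (2620 on counts), 5719 and 5663 lower (2543), and 5 and 5 of the 9 genes lower (3). The values of the TPM scale with 5-ALA were -0.152 and -0.152 for Sptb, -0.037 and -0.038 for Ank1, -0.192 and -0.295 for Epb42, -0.202 and -0.203 for Tmod3, -0.045 and -0.045 for Actb, and -0.092 and -0.094 for Cast. For Epb42 in mutant against WT cells they were 0.012 and 0.024. Each of these had the opposite sign on counts. For Tmod3 the count value was 0.00012, so small that its sign carries little meaning, and only 3 of its 15 alternatives kept that sign. Tmod3 with 5-ALA was also -0.0060 with DESeq2 size factors, -0.016 with upper quartile scaling, -0.015 without a filter, -0.0053 with only the 6 libraries compared and -0.0062 in DESeq2. The log2 ratio of Sptb to Ank1 from expected counts was -0.00073 in mutant cells with 5-ALA against WT cells. The cause of these changes was not tested.

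Leaving out 1 library at a time, the log2 fold change with 5-ALA ranged from -0.021 to 0.0045 for Tmod3 and from -0.037 to 0.23 for Epb42, and that of Epb42 in mutant cells with 5-ALA against WT cells from -0.22 to 0.068. The log2 ratio of Epb42 to Ank1 in mutant against WT cells ranged from -0.26 to 0.073. Length differences ranged from -21.8 to 57.3 bases (Epb41 with 5-ALA), -74.2 to 4.94 (Epb41, mutant with 5-ALA against WT), -196 to 107 (Epb42, mutant against WT), -7.86 to 1.93 (Dmtn, mutant with 5-ALA against WT) and -18.2 to 51.8 (Add1 with 5-ALA). Depth limits Epb42, at 38 to 102 counts a library, and untreated Dmtn, at 5 to 12.

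Libraries with the same replicate number did not deviate together (correlations of deviations from -0.077 to 0.067), so no pairing by number was seen. With 3 libraries a group, a weak pairing could go unseen. With a replicate block the fit called 5215 genes higher and 5617 lower with E2, 2549 and 2483 with 5-ALA, and Tmod3 with 5-ALA was -0.00044. The block changed no call of the 9 genes.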
